A study of Mus musculus with 30 samples.

Results

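The 10 genes described here encode the muscle acetylcholine receptor and the proteins that gather it under the nerve ending. They are the receptor subunits *Chrna1*, *Chrnb1*, *Chrnd*, *Chrne* and *Chrng*, the receptor-clustering genes *Musk*, *Lrp4*, *Dok7* and *Rapsn*, and *Ncam1*. They were chosen by name, as synaptic genes of the muscle fibre, from a table of 56748 genes, with earlier results of these data known. All 10 passed the filter on low counts that left 17518 genes to test. Their mRNA was measured by RNA-seq of quadriceps in 30 mice. WT mice (n = 5) were FVB/N animals without a transgene. All other mice belonged to HSA-LR20b (HSA-LR), a homozygous line on which a human skeletal actin transgene carries an expanded CTG repeat and is transcribed in muscle fibres from the skeletal actin promoter. It models myotonic dystrophy type 1 in skeletal muscle only. NT mice (n = 8) were HSA-LR animals without treatment. Treated HSA-LR mice were injected into the tail vein at about 8 weeks of age, and muscle was taken 2 weeks after the last injection. They received pacDNA-L9, an antisense oligonucleotide against CUG repeats on a bottlebrush polymer of polyethylene glycol, in 3 doses. The doses were 5.3 mg/kg in 4 mice, then 21.2 mg/kg in 3 mice and 42.4 mg/kg in another 3, both of these divided over repeated injections. Among the controls, 3 mice received the oligonucleotide without polymer (free L9, 5.3 mg/kg), 2 the polymer without oligonucleotide (Brush, 40 nmol) and 2 a conjugate of scrambled order (pacDNA-Scr, also 5.3 mg/kg). The labels of the 6 libraries deposited as a second set give no strain.

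In innervated muscle the receptor is made almost only at the few nuclei beneath the nerve ending. There the nerve releases agrin, which binds LRP4, and LRP4 activates the receptor kinase MuSK with the help of the adaptor DOK7. The scaffold rapsyn then packs receptors into clusters. The adult receptor holds the ε subunit (*Chrne*), and the foetal receptor holds the γ subunit (*Chrng*) in its place. When a nerve is cut, nuclei along the whole fibre switch on *Chrna1*, *Chrnd*, *Chrng*, *Musk* and *Ncam1*, and this rise is the usual mark of denervated fibres.

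In the mouse genome (GRCm39) the δ and γ subunit genes are neighbours, with *Chrnd* at chr1:87118306-87127795 (plus strand) and *Chrng* at chr1:87132379-87140416 (plus strand). The other subunits are *Chrna1* at chr2:73393557-73410835 (minus strand), *Chrnb1* at chr11:69674860-69686773 (minus strand) and *Chrne* at chr11:70505707-70510125 (minus strand). The clustering genes are *Musk* at chr4:58285931-58377847 (plus strand), *Lrp4* at chr2:91287797-91344248 (plus strand), *Dok7* at chr5:35213886-35246018 (plus strand) and *Rapsn* at chr2:90865892-90876082 (plus strand), and the adhesion gene is *Ncam1* at chr9:49413436-49710357 (minus strand).

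Much of that switching is known to act through short sequence elements near the gene start. The E-box, CANNTG, binds myogenic factors such as myogenin, and the N-box, CCGGAA, binds ETS factors in nuclei at the synapse. In the 250 bases before the start of the canonical transcript (GENCODE vM39, GRCm39, both strands searched), an E-box was found in 9 of the 10 genes, all but *Lrp4*, against 64.8% of 21770 promoters. The E-box core CAGCTG, a form of CANNTG, was found in 3 of the 10 and in 11.9% of promoters. CCGGAA was found in 2 of the 10, *Chrnd* and *Lrp4*, and in 12.4% of promoters. These are matches of letters only. The windows below are shown because they belong to the subunits and clustering genes whose levels are compared in what follows. Each is read 5′ to 3′ on the strand of the gene, with the match in capitals. *Chrng* holds CAGCTG at chr1:87133366-87133395 and again at chr1:87133389-87133418 on the plus strand. *Chrne* holds it at chr11:70510141-70510170 on the minus strand, and *Musk* at chr4:58285882-58285911 on the plus strand. The N-box of *Chrnd*, on the strand opposite to the gene, lies in chr1:87118276-87118305, and that of *Lrp4* in chr2:91287623-91287652, both windows being written on the plus strand.
Chrng, first: atatcctgggaaCAGCTGacaatgcagtgg
Chrng, second: gcagtggtcagaCAGCTGgtggggccagct
Chrne: cacaggatggggCAGCTGcctcccccaccc
Musk: gtgagttctcccCAGCTGgccacgtccatc
Chrnd: agctttcaagtatcagattgcgtTTCCGGc
Lrp4: aaggggctctctCCGGAAggctaggaatgt

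The 30 libraries held 13605309 to 26956558 counts. The 6 libraries of the second set (NT 7 and 8, 2 of the 5.3 mg/kg mice and 1 mouse each of 21.2 mg/kg and free L9) stood apart from the other 24 on the first principal component, and 5 of them list all 37 mitochondrial genes at 0. The deposited set was therefore a term in the model. In a further 9 libraries the table's column name gives only group and running number. They include all 3 mice at 42.4 mg/kg, and 14485 to 19572 genes were detected in them against 19098 to 21357 in the other 15 libraries of the first set. Free L9 mouse B was the lowest of all in genes detected and had 22.3% mitochondrial counts. By their *Xist* and Y-linked counts, all 3 mice at 42.4 mg/kg were female, as were 4 of 8 NT and 4 of 5 WT mice. Markers of muscle fibres were high in every group. In bulk RNA, fewer cells of a type and less RNA per cell cannot be told apart. Each mouse is 1 library, and all comparisons with NT share the same 8 NT mice.

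Levels are given as CPM, the counts of a gene scaled to a common library size after TMM normalization, and only per kilobase of exon where genes are set against each other. In WT muscle *Rapsn* (15.5 ± 1.80 CPM per kb, SD, n = 5) and *Chrnb1* (14.3 ± 5.55 CPM per kb) stood highest, with overlapping ranges. *Chrne* followed at 6.75 ± 1.85 CPM per kb and *Chrna1* at 4.15 ± 1.73 CPM per kb, and their ranges overlapped too. *Dok7* lay at 2.73 CPM per kb, and its range overlapped that of *Chrna1* but not that of *Lrp4* at 1.25 CPM per kb. *Lrp4*, *Musk*, *Chrnd* and *Ncam1* (0.827 CPM per kb) each overlapped the next in the order. *Chrng* was lowest, at 0.0772 ± 0.0237 CPM per kb, apart from all the others. In NT muscle the mean of *Ncam1* moved from ninth to sixth place, at 1.98 ± 0.476 CPM per kb (n = 8), with a range that overlapped those of *Musk* and *Dok7*. With the longest transcript in place of all exons as the length, *Dok7* and *Chrna1* changed places in both groups, as did *Chrnd* and *Ncam1* in WT.

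**Figure D1:**
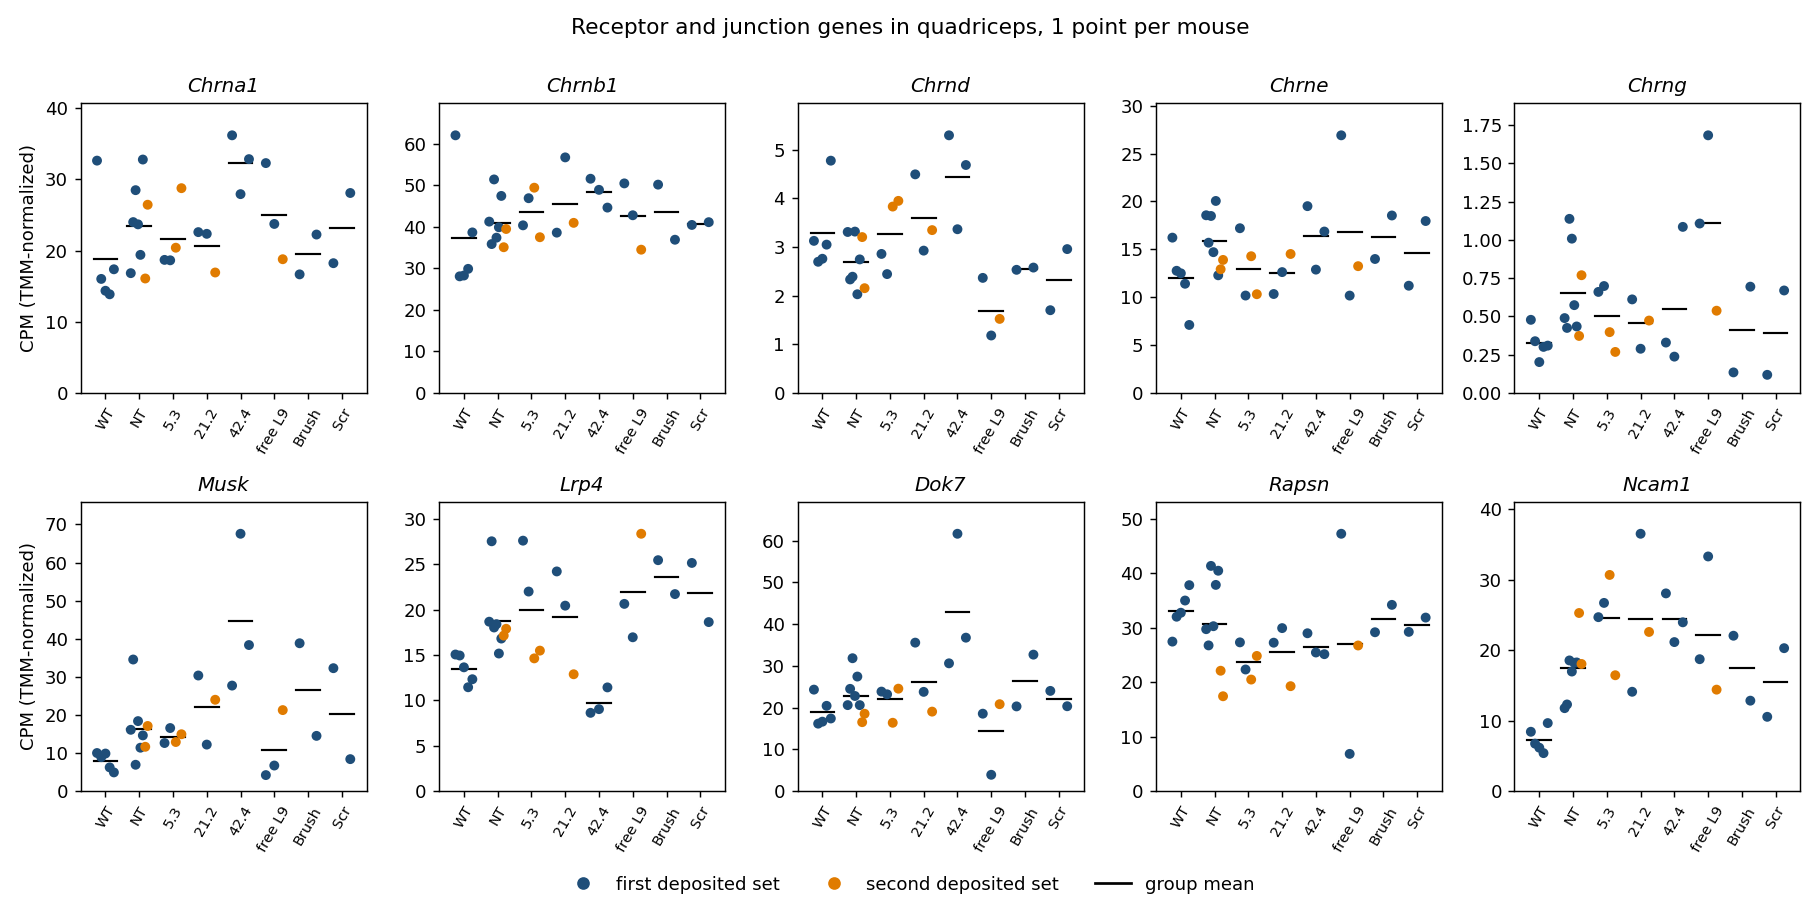
CPM after TMM normalization (y axis) of each of the 10 genes in every mouse, by group (x axis, with 5.3, 21.2 and 42.4 as mg/kg of pacDNA-L9 and Scr as pacDNA-Scr). Points are mice, coloured by deposited set, and bars are group means. *Ncam1* lies higher in every NT mouse than in every WT mouse, and *Lrp4* lies lower in the 3 mice at 42.4 mg/kg than in every NT mouse.

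The first comparison asks how the junction genes differed between untreated HSA-LR and WT muscle. *Ncam1*, a cell adhesion molecule that spreads over denervated fibres, was the 1 member that passed the test. *Lrp4* was higher in every NT mouse but did not pass the test, and the receptor subunits differed by less than the test could call. Of the 17518 genes, 5.31% were called (3.64% higher and 1.67% lower), and 1 of 10 members was, higher. The median log2 fold change over the members was 0.39, against -0.03 over all genes tested. Here and below, padj is the Benjamini-Hochberg value over all genes tested from edgeR's quasi-likelihood test, and a gene was called at a padj under 0.05. Counts of members called are descriptions only, since the members were chosen with earlier results of these data known.

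*Ncam1* was present at 5.40, 6.17, 6.74, 8.43 and 9.66 CPM in the 5 WT mice. In the NT mice it ran from 11.8 over a median of 18.1 to 25.3 CPM. The groups did not overlap, which held for 2 members, *Ncam1* and *Lrp4*, and for 4.72% of all genes tested. *Ncam1* was 2.40-fold higher in NT, a log2 fold change of 1.26 ± 0.26 (SE) with padj = 0.0026. It stayed past the threshold in each of the alternative fits, with log2 fold changes from 1.13 to 1.46. In the males among the NT mice it ran from 11.8 to 18.3 CPM and in the females from 17.0 to 25.3 CPM.

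*Lrp4*, the agrin receptor, had 11.4, 12.3, 13.6, 14.9 and 15.1 CPM in WT mice and 15.2 to 27.5 CPM in NT mice, with a median of 18.0. The lowest NT mouse was 5, just above the highest WT mouse. The log2 fold change was 0.54 ± 0.17 and padj = 0.073, and 0.43 (padj = 0.16) without NT mouse 2, the highest. In 4 alternative fits *Lrp4* passed the threshold as well, which are given with the other alternatives below.

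*Musk*, the kinase at the centre of the junction, had 4.93 to 10.0 CPM in WT mice, with a median of 8.93. Its values in NT mice were 6.94 to 34.6 CPM, with a median of 15.4, so that only NT mouse 3 lay within the WT range. The log2 fold change was 0.97 ± 0.41 (padj = 0.21), and 0.67 (padj = 0.40) without NT mouse 2. *Dok7*, its activator, differed by a log2 fold change of 0.30 ± 0.26 (padj = 0.65), and *Rapsn*, the receptor scaffold, by -0.02 ± 0.25. For *Rapsn* the 95% interval, -0.50 to 0.46, leaves room for changes of either sign.

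Among the receptor subunits, *Chrng* had the highest fitted difference and the fewest reads. It was counted 4 to 9 times per library in WT mice and 8 to 24 times in NT mice, or 0.325 ± 0.0995 CPM (n = 5) and 0.650 ± 0.290 CPM (n = 8). Its log2 fold change was 1.12 ± 0.48 (padj = 0.22). *Chrne*, the adult subunit, had 7.09 to 16.2 CPM in WT and 12.3 to 20.1 CPM in NT mice (log2 fold change 0.44 ± 0.22, padj = 0.32). *Chrna1*, the subunit that carries most of the acetylcholine binding site, had a log2 fold change of 0.35 ± 0.21 (padj = 0.45), *Chrnb1* of 0.18 ± 0.16 (padj = 0.68) and *Chrnd* of -0.31 ± 0.22 (padj = 0.54). WT mouse 1 was far above the other WT mice in *Chrna1*, at 32.6 CPM against 13.8 to 17.4, and in *Chrnb1*, at 62.1 CPM against 28.1 to 38.7. It was the only male among them. Without it the log2 fold changes were 0.64 (padj = 0.059) for *Chrna1* and 0.43 (padj = 0.079) for *Chrnb1*, still not past the threshold.

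The balance of foetal to adult receptor can be written as the share of *Chrng* in the sum of *Chrng* and *Chrne*, each per kilobase. This share was 1.18% ± 0.406 in WT (SD, n = 5) and 1.72% ± 0.709 in NT muscle (n = 8). The difference of 0.534 percentage points did not pass the test (exact two-sided permutation test, p = 0.166, the smallest possible being 0.000777). With 5 WT mice and 4 to 9 counts of *Chrng* in each, this test could miss a difference. Within the first deposited set the difference was 0.525 percentage points (exact permutation test, p = 0.236). *Chrne* thus made up nearly all of the pair in both groups. The share lay between 0.674% and 2.82% in WT, NT and the mice given pacDNA-L9. Free L9 mice had 3.31% ± 2.80 (n = 3), with the highest value, 6.54%, in mouse B, the library with 22.3% mitochondrial counts. Brush mouse A and pacDNA-Scr mouse A had 2 counts of *Chrng* each, under the 3 counts taken as the smallest amount a library can show.

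**Figure D2:**
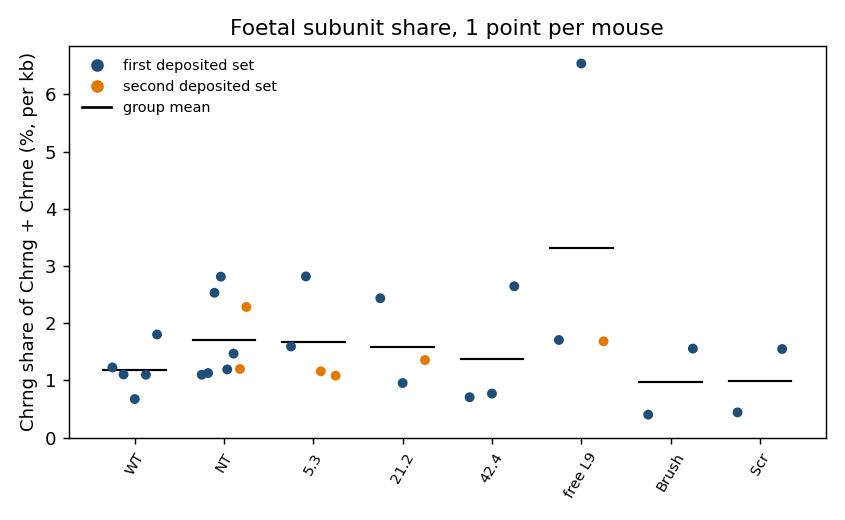
Share of *Chrng* in the sum of *Chrng* and *Chrne*, each per kilobase (y axis, percent), in every mouse by group (x axis, as in the plot of levels). Points are mice, coloured by deposited set, and bars are group means. WT mice lie between 0.674% and 1.80% and NT mice between 1.10% and 2.81%, so the groups overlap.

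The next genes are 17 that are known to rise on denervation. This list was chosen with earlier results of these data known, so its counts are descriptions only. In NT against WT, 6 of the 17 were called higher and none lower, against 3.64% and 1.67% of all genes tested. The median log2 fold change over the list was 0.85. Sarcolipin (*Sln*), an inhibitor of the calcium pump, rose from 2.23 ± 1.91 CPM (n = 5) to 74.7 ± 26.1 CPM (n = 8), a log2 fold change of 5.14 ± 0.44 (padj = 1.5e-08). *Kcnn3*, the SK3 potassium channel found on denervated and myotonic fibres, rose from 2.11 ± 0.614 to 17.8 ± 2.42 CPM (padj = 1.4e-08). The ankyrin repeat gene *Ankrd1* rose by a log2 fold change of 3.01 (padj = 0.0042) and the receptor gene *Tnfrsf12a* by 1.72 (padj = 0.046). *Runx1*, a transcription factor induced in denervated fibres, rose by 1.61 (padj = 0.00012), and the sixth gene was *Mybph*, a protein of the thick filament, at 1.18 (padj = 0.0027). The call of *Tnfrsf12a* was lost in most alternatives. It was lost when any of WT mice 1 to 4 or of NT mice 1, 4, 5, 6, 7 and 8 was left out. It was also lost in the first set alone, in females alone, with library size alone, without a filter, with only the groups compared and after dropping the 5 libraries at 0 in mitochondrial genes. The other genes of the list, among them genes that act in atrophy and in control of the receptor genes, did not pass. *Myog* had a log2 fold change of -0.62 (padj = 0.56), *Gadd45a* of 0.15 (padj = 0.88), *Fbxo32* of 0.09 (padj = 0.94), *Trim63* of 0.37 (padj = 0.52) and *Hdac4* of 0.15 (padj = 0.81). Of 4 genes known to fall on denervation, *Dach2*, *Scn4a*, *Ppargc1a* and *Pvalb*, none was called (1 at an unadjusted p under 0.05).

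Of 20 other genes of the junction, 19 were tested and 1 was called in NT. *Gfpt1*, an enzyme that makes amino sugar for glycoproteins, fell from 66.5 ± 17.2 to 45.8 ± 4.96 CPM (log2 fold change -0.51, padj = 0.046). *Agrn*, the gene of agrin, had 19.5 ± 7.45 CPM in WT and 12.4 ± 3.82 CPM in NT mice (log2 fold change -0.54, padj = 0.25). The median over the 19 genes was -0.11. Of 11 other subunits of acetylcholine receptors, 5 were tested, and *Chrna9*, a subunit known from hair cells, was called higher (padj = 0.0076). It was listed at 0 to 0.257 CPM in WT mice and at 0.380 to 9.32 CPM in NT mice, so few counts stand behind the WT level. *Mbp* and *Prx* are myelin genes of Schwann cells, the glia of the nerve. *Mbp* fell from 27.3 ± 11.3 to 14.5 ± 4.81 CPM (log2 fold change -0.97, padj = 0.022) and *Prx* from 14.3 ± 5.60 to 7.05 ± 2.42 CPM (padj = 0.026). The part of these cells in the members' levels was not tested. The 4 satellite cell markers summed to 20.6 to 24.9 CPM in WT and 19.8 to 32.8 CPM in NT mice, and none was called (2 at an unadjusted p under 0.05). All 4 had a log2 fold change above 0, with a median of 0.79 against -0.03 over all genes tested. Satellite cells also make *Ncam1*, and the part of these cells in its level was not tested.

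The second comparison asks how the same genes differed between mice at the highest dose of pacDNA-L9 and NT mice. All 3 libraries at this dose had the short names, of group and running number only, against 1 of 8 NT libraries. All 3 mice were female, against 4 of 8 NT mice. The dose therefore cannot be fully told apart from the kind of library or from sex. Nor can it be told apart from the repeated injections, which NT mice did not receive. *Lrp4* fell to the lowest mean of any group, and *Musk*, *Dok7* and *Chrnd* had higher means without passing the test. Of all genes tested, 3.14% were called (2.28% higher and 0.862% lower), and 1 of 10 members was, lower. The median log2 fold change over the members was 0.31, against -0.02 over all genes. No member other than *Lrp4* had a called change. The highest dose was not tested against WT. The highest *Lrp4* value of its 3 mice was 11.43 CPM, and the lowest WT mouse had 11.45 CPM.

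*Lrp4* had 8.63, 9.03 and 11.4 CPM in the 3 mice at 42.4 mg/kg. All were below the lowest NT mouse, at 15.2 CPM, and the mean of 9.70 ± 1.51 CPM (n = 3) was also below the WT mean of 13.5 ± 1.59 CPM (n = 5). The log2 fold change against NT was -1.01 ± 0.21 with padj = 0.0053. Groups that did not overlap were seen for 2 of 10 members, *Lrp4* and *Chrnd*, and for 7.00% of all genes. In Brush and in pacDNA-Scr, each with 1 library of each kind of name, the library with the short name had the lower *Lrp4* (21.7 against 25.4 CPM, and 18.6 against 25.1 CPM). The mice of each pair also differed in sex. In WT and NT the short-named mouse, at 12.3 and 16.8 CPM, lay within the range of the others of its group. With the kind of name as a further term the change was -0.68 (padj = 0.13), and without mouse B it was -0.96 (padj = 0.071). Among female mice alone, NT ran from 15.2 to 18.4 CPM, and the call held.

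*Musk* had 27.7, 67.6 and 38.4 CPM in mice A, B and C. NT mouse 2, at 34.6 CPM, lay between them, and the other 7 NT mice had 18.4 CPM or less. The log2 fold change was 1.50 ± 0.43, a 2.83-fold higher level, with padj = 0.057. NT mouse 2 was male, and the 4 NT females had 6.94 to 18.4 CPM. With sex in the model the log2 fold change was 1.87 (padj = 0.0075), and in females alone 1.90 (padj = 0.019). With the kind of library name in the model it was 2.37 (padj = 0.0044). *Musk* was lower in the short-named library of Brush (14.5 against 38.8 CPM) and of pacDNA-Scr (8.41 against 32.3 CPM), pairs that also differed in sex. The short-named WT mouse was the lowest of WT at 4.93 CPM. The short-named NT mouse, at 14.6 CPM, lay within the range of the other NT mice. Without mouse B of the highest dose the log2 fold change of *Musk* was 1.07 (padj = 0.51).

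*Dok7* had the same order among the 3 mice, with 30.6, 61.6 and 36.8 CPM against 16.5 to 31.8 CPM in NT mice. Its log2 fold change was 0.87 ± 0.29 (padj = 0.12), and 0.52 without mouse B. *Chrnd*, the δ subunit, had 5.30, 3.37 and 4.69 CPM, all above the highest NT mouse at 3.32 CPM. Its log2 fold change was 0.75 ± 0.25 (padj = 0.11). It was 0.60 (padj = 0.39) without mouse A, 0.92 (padj = 0.17) without mouse B and 0.41 (padj = 0.69) with the kind of library name in the model. *Chrna1* (log2 fold change 0.43, padj = 0.48), *Ncam1* (0.48, padj = 0.51) and *Chrnb1* (0.20, padj = 0.77) had higher means with overlapping mice. *Rapsn* (-0.29), *Chrng* (-0.34) and *Chrne* (0.01) had 95% intervals on both sides of 0. The value of *Chrng* ranged from -1.31 without mouse C to -0.0027 without mouse B, and was -0.90 with the kind of library name in the model. *Ncam1*, at 24.4 ± 3.47 CPM, lay above its NT mean and far above the WT mean of 7.28 ± 1.73 CPM.

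**Figure D3:**
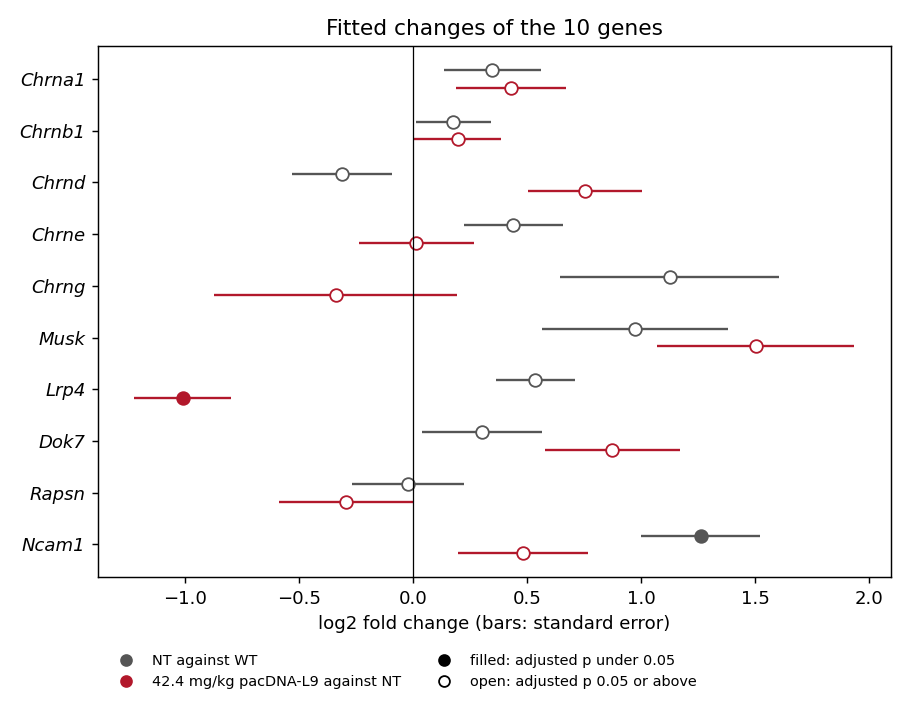
Log2 fold change of each of the 10 genes (x axis, bars are SE) for NT against WT (grey) and for 42.4 mg/kg pacDNA-L9 against NT (red). Filled points have an adjusted p under 0.05, which are *Ncam1* at 1.26 in NT and *Lrp4* at -1.01 at the highest dose.

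On the same list of 17 genes known to rise on denervation, 7 were called higher at 42.4 mg/kg and none lower. Of all genes tested, 2.28% were called higher and 0.862% lower. The median log2 fold change over the list was 1.11, and these counts too are descriptions only. *Runx1* had 2.56 to 4.19 CPM in WT mice, 5.73 to 14.1 CPM in NT mice and 18.1 to 22.8 CPM at 42.4 mg/kg (log2 fold change against NT 1.07, padj = 0.016). *Cdkn1a*, an inhibitor of the cell cycle, had the highest change at 2.55 ± 0.40 (padj = 0.00029). *Trim63*, the muscle ubiquitin ligase MuRF1, rose by 2.50 (padj = 2.3e-06), with 498, 2292 and 795 CPM in mice A, B and C against 185 to 260 CPM in NT mice. *Gadd45a*, a stress gene, rose by 2.08 (padj = 0.00011), and its 3 mice were alike at 105, 114 and 108 CPM against 16.4 to 43.9 CPM in NT. *Myog*, the myogenic factor that drives receptor genes through E-boxes, rose by 1.94 (padj = 0.028), with 29.97, 89.8 and 33.2 CPM against 6.56 to 31.2 CPM in NT mice, which overlap. *Fbxo32*, the ubiquitin ligase atrogin-1, rose by 1.63 (padj = 0.003). *Hdac4*, chosen for mention after its values were seen, rose by 0.91 (padj = 0.028).

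Mouse B was the highest of the 3 in all 7 called genes of this list, as in *Musk* and *Dok7*. Without it 2 of the 17 genes, *Gadd45a* and *Trim63*, were called. In female mice alone 3 were called, *Fbxo32*, *Gadd45a* and *Trim63*, and with the kind of library name in the model 4 were, *Cdkn1a*, *Gadd45a*, *Hdac4* and *Trim63*. *Myod1*, another myogenic factor, went the other way with 13.8 to 28.4 CPM against 20.3 to 53.6 CPM in NT mice and did not pass (padj = 0.31). *Ppargc1a*, a coactivator of mitochondrial genes that is known to fall on denervation, rose by 1.45 (padj = 0.00091), with 60.9, 164 and 86.9 CPM against 26.3 to 52.5 CPM in NT. The foetal *Chrng*, which is known to climb with *Myog* in denervated fibres, was counted 7, 4 and 28 times in mice A, B and C. These counts are too few to set its level against that of *Myog* in single mice.

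**Figure D4:**
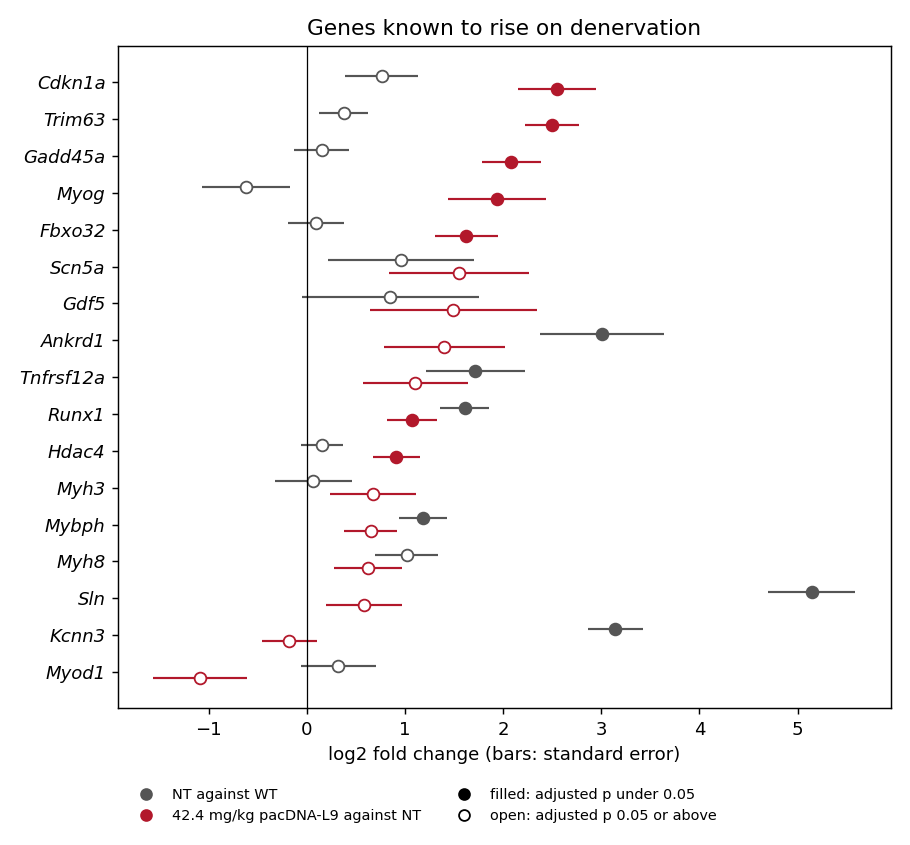
Log2 fold change (x axis, bars are SE) of 17 genes known to rise on denervation, for NT against WT (grey) and for 42.4 mg/kg pacDNA-L9 against NT (red), ordered by the latter. Filled points have an adjusted p under 0.05. There are 6 filled grey points and 7 filled red points.

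None of the 19 other junction genes tested was called at the highest dose by edgeR, while for 3 the p before adjustment was under 0.05. Their median log2 fold change was -0.13. *Agrn*, the ligand that acts through *Lrp4*, had 6.61 to 10.1 CPM against 8.92 to 20.6 CPM in NT mice (log2 fold change -0.74, padj = 0.25). The Schwann cell genes *Mbp* (log2 fold change 0.05) and *Prx* (0.21) were not called. Macrophage markers summed to 84.0 to 115 CPM at 42.4 mg/kg against 33.3 to 56.7 CPM in NT mice, and 3 of 5, *Cd68*, *C1qa* and *Csf1r*, were called. The sums were 70.0 to 82.5 CPM at 5.3 mg/kg, 55.1 to 97.5 CPM at 21.2 mg/kg and 79.2 to 83.5 CPM with Brush. No member was called against NT in these groups, where 0%, 0.0685% and 0% of all genes were called. The part of macrophages in the members' levels was not tested.

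At the lower doses and in the control groups none of the 10 members was called against NT. At 5.3 mg/kg 0% of all genes were called, and likewise for Brush and pacDNA-Scr, while for 277, 329 and 270 genes edgeR gave p-values under 0.05 before adjustment. DESeq2 called 3 genes at 5.3 mg/kg, 6 for Brush and 0 for pacDNA-Scr. At 21.2 mg/kg 0.0685% of genes were called. No member had an unadjusted p under 0.05 in any of these 4 comparisons, and DESeq2 called no member in them. *Ncam1* had means that differed by less than the spread of the mice across the doses of pacDNA-L9, at 24.6 ± 5.99 CPM for 5.3 mg/kg (n = 4), 24.4 ± 11.3 CPM for 21.2 mg/kg (n = 3) and 24.4 ± 3.47 CPM for 42.4 mg/kg (n = 3). Against NT its log2 fold changes were 0.50, 0.49 and 0.48, none past the threshold. *Lrp4* had means of 19.9 ± 6.08 CPM at 5.3 mg/kg and 19.2 ± 5.77 CPM at 21.2 mg/kg, neither below the NT mean of 18.7 ± 3.73 CPM. It had 27.6, 22.0, 14.6 and 15.5 CPM at 5.3 mg/kg and 24.2, 20.4 and 12.9 CPM at 21.2 mg/kg, where the lowest mice were those of the second set. *Musk* had 12.6 to 16.6 CPM at 5.3 mg/kg and 30.4, 12.2 and 24.0 CPM at 21.2 mg/kg.

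*Musk* was also uneven within the small control groups, with 38.8 and 14.5 CPM in the Brush mice and 32.3 and 8.41 CPM in the pacDNA-Scr mice. Its fitted change for Brush, 0.76 ± 0.51, has a 95% interval from -0.25 to 1.76, which includes the size seen at 42.4 mg/kg. *Lrp4*, at 25.4 and 21.7 CPM with Brush and 25.1 and 18.6 CPM with pacDNA-Scr, lay above the 3 mice at 42.4 mg/kg in all 4 of these mice.

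Free L9 and pacDNA-L9 were given at the same dose of 5.3 mg/kg, with and without the polymer. The libraries differed as well, since 2 of 3 free L9 libraries and 0 of 4 pacDNA-L9 libraries at this dose had the short names, and 1 of 3 against 2 of 4 came from the second set. The compound and the kind of library therefore cannot be fully told apart. For free L9 against NT 0.942% of all genes were called (0.765% higher and 0.177% lower), for pacDNA-L9 against free L9 0.719% (0.194% higher and 0.525% lower), and in both 0 of 10 members (1 member at an unadjusted p under 0.05 in each, *Chrnd*, and none by DESeq2). *Chrnd* had 2.36, 1.18 and 1.52 CPM with free L9 against 2.44 to 3.95 CPM with pacDNA-L9 at 5.3 mg/kg. These groups did not overlap, as was the case for 4.26% of all genes. The log2 fold change for pacDNA-L9 against free L9 was 0.91 ± 0.31 (padj = 0.20), 0.72 (padj = 0.35) without free L9 mouse B, 0.56 (padj = 0.49) in the first set alone and 1.18 (padj = 0.070) with the kind of library name in the model. Without free L9 mouse A it was 1.27 (padj = 0.036), and *Chrnd* was then also called lower with free L9 than in NT (-1.05, padj = 0.045). Free L9 mouse B had by far the lowest *Rapsn* (6.85 CPM) and *Dok7* (3.93 CPM) of all 30 mice, and the other free L9 mice had 47.2 and 26.7 CPM of *Rapsn* and 18.6 and 20.8 CPM of *Dok7*. For the other 9 members the 95% intervals of the difference between pacDNA-L9 and free L9 included 0, the widest being that of *Chrng* from -2.18 to 0.11.

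The members did not move as 1 group across mice. Over the 24 libraries of the first set, which span all 8 groups and a range of depths, the correlation of log2 CPM ran highest for *Chrna1* with *Chrnb1* (Pearson r = 0.67) and *Chrnb1* with *Ncam1* (r = 0.64). It was 0.56 for *Dok7* with each of *Musk*, *Chrnd* and *Rapsn*, 0.33 for *Chrne* with *Chrng* and -0.45 for *Chrnd* with *Lrp4*. Among 12606 genes with a mean of at least 1 CPM, those most like *Ncam1* were *Acot9*, *Pon2* and *Enah* (r = 0.90 for each). Those most like *Musk* were *Erbin*, *Fbxo38* and *Ppp1r12b* (r = 0.88 to 0.89), and Erbin is known to bind the receptor ErbB2. For *Chrne* they were *Grb2*, *Lgals1* and *Polr2g* (r = 0.80 to 0.83), and for *Chrna1* they were *Wdr33*, *Rab13* and *Cdk11b* (r = 0.75 to 0.80). These values are descriptions, since groups and kinds of library are shared by the points.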

How the data were processed

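Poly(A)-enriched RNA from quadriceps of 30 mice was sequenced as paired reads, and the authors deposited raw counts per gene without normalization. Per the labels and the submitters' processing notes, reads were mapped with HISAT2 2.0.5 to GRCm39 (mm39). Rsubread is named in the methods, but counting options, strand setting and annotation are not given in the sources used here. Antisense genes overlap 13.2% of the exon bases of *Chrna1*, 4.74% of *Ncam1*, 1.32% of *Rapsn* and 1.11% of *Musk*, and such reads cannot be told apart.

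Groups and deposited sets were taken from the labels. WT includes 1 mouse without a number. The model was fitted with edgeR 4.0.16 (R 4.3.3). filterByExpr (minimum count 10) left 17518 of 56748 genes. After TMM normalization a robust quasi-likelihood model with 8 groups and the deposited set was fitted to all 30 libraries, and p-values were adjusted by Benjamini-Hochberg over all genes tested (threshold 0.05). Each SE is the log2 fold change divided by the square root of F, and intervals (95%) are 1.96 SE. In simulated data on 17518 genes with the same design, 70% of 2-fold and 95% of 4-fold changes were recovered for NT against WT, and 49% and 90% for 42.4 mg/kg against NT. The changed genes all had a mean above 1 CPM, so these shares do not cover *Chrng*. No effect of the deposited set was simulated. Nothing says that the mice came from separate cages or litters, and depth limits the precision of *Chrng* most, with 2 to 30 counts per library. The 3-count floor covers counting error only. The share of *Chrng* was tested by exact permutation. Human transgene reads were not analysed here. The Schwann cell list is not reported here as a whole.

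Alternatives were DESeq2 size factors or library size, other filters, no set term, the first set only, sex or kind of library name as a term, no libraries without mitochondrial counts, only the groups compared, no robust estimation, the DESeq2 1.42.0 Wald test, a replicate block and each mouse left out. Fits to females only and all alternatives for the denervation list were chosen after seeing the data. The members and gene lists were chosen with earlier results of these data known. The text names all 10 members, up to 5 called genes of a list per comparison by size of change, and the 3 genes most like each of 4 members by correlation of log2 CPM (prior count 1) in the 24 first-set libraries. Others were named after their values were seen. Promoter windows came from the GRCm39 genome and GENCODE vM39.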

Additional observations from a re-analysis of the deposited data

Results flagged for a closer look

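5 of 33 groups of 4 to 8 mice held a mouse far from the others of its group by Dixon's ratio of its gap to the group's range, and chance flags about 1 in 20 groups. Chrna1 was 32.6 CPM in WT mouse 1, where the next WT mouse had 17.4 CPM, and leaving it out moved the log2 fold change of NT against WT from 0.35 to 0.64. Chrnd was 4.78 CPM in the WT mouse without a number, where the next had 3.13 CPM, and without it the log2 fold change of NT against WT moved from -0.31 to -0.14. NT mouse 2 stood out in both Musk, at 34.6 CPM against 18.4 CPM in the next NT mouse, and Lrp4, at 27.5 CPM against 18.7 CPM. Dok7 was lowest in 5.3 mg/kg mouse C, at 16.4 CPM, where the next mouse of that group had 23.2 CPM. That library belongs to the second deposited set, in which the 2 NT mice also had low Dok7, at 16.5 and 18.5 CPM.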

How the results depend on the processing

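For NT against WT, *Ncam1* was called in every alternative run, and the count of members called was 1 or 2. It was 2, with *Lrp4* added, in the first deposited set only (log2 fold change of *Lrp4* 0.51, padj = 0.047), with the kind of library name as a term, with only the groups compared and by DESeq2. For 42.4 mg/kg against NT the count was 2, *Lrp4* and *Musk*, with at least 10 counts in every library, with sex as a term, by DESeq2 and in females only. It was 2, *Lrp4* and *Dok7*, with only the groups compared, and 1, *Musk* in place of *Lrp4*, with the kind of library name as a term. Leaving out 1 mouse at a time gave 0 (without mouse B) to 2 members for 42.4 mg/kg (2, *Lrp4* and *Musk*, without NT mouse 2 or without mouse A) and 0 to 1 for free L9 and for pacDNA-L9 at 5.3 mg/kg against free L9.

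On the denervation list the count called at 42.4 mg/kg was 7, and 4 with the kind of library name, 3 in females only and 2 to 7 when a mouse was left out. The number of all genes called for NT against WT was 930, and 389 in females only. For 42.4 mg/kg it was 550, and 240 with the kind of library name, 149 in females only, and 126 (without mouse B) to 538 with a mouse left out. For 5.3 mg/kg it was 1 without a filter, 1 with at least 10 counts and 3 by DESeq2. For 21.2 mg/kg it was 12, and 5 with at least 10 counts, 2 in the first set, 3 after dropping the 5 libraries at 0 in mitochondrial genes, 4 with only the groups compared, 19 by DESeq2, and 2 to 20 with a mouse left out. For free L9 it was 165, and 42 with at least 10 counts, 22 with no set term, 354 in the first set, 347 after dropping the 5 libraries at 0 in mitochondrial genes, 3 with only the groups compared, 530 by DESeq2, and 58 to 1360 with a mouse left out. For Brush it was 2 without a filter, 4 with sex and 6 by DESeq2. For pacDNA-L9 at 5.3 mg/kg against free L9 it was 126, and 26 with at least 10 counts, 2 with no set term, 2 with only the groups compared, 414 by DESeq2, and 13 to 651 with a mouse left out.

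Among the members' fold changes between NT and WT or between the highest dose and NT, 2 values near 0, neither ever called, changed sign. In the other comparisons, where no member was called, values near 0 also changed sign between alternatives, as for *Lrp4* with free L9 against NT (0.28, and -0.015 in the first set) and *Rapsn* (-0.11, and 0.37 without free L9 mouse B). *Chrne* at 42.4 mg/kg (0.01) was -0.025 with library size, -0.030 in the first set, -0.032 with sex, -0.016 after dropping the 5 libraries at 0 in mitochondrial genes, -0.017 with only the groups compared, -0.036 in females only, and -0.13 to 0.16 with a mouse left out. *Rapsn* in NT against WT (-0.02) was 0.067 in the first set, 0.060 after dropping the same 5 libraries, 0.058 with only the groups compared, 0.046 in females only, 0.0082 in the WT and NT mice 1 to 4 with no replicate block, and -0.085 to 0.032 with a mouse left out. The cause of these changes was not tested. WT and NT mice 1 to 4 share numbers, but same-numbered mice correlated at r = 0.12, -0.04, 0.05 and 0.10 in their deviations, so the numbers were not taken to pair them. Among these 8 mice the replicate block gave 631 genes called and 680 without it, with 1 member, *Ncam1*, called in both. The difference in *Chrng* share did not pass the exact permutation test in any alternative (p = 0.071 to 0.34). It was 0.377 to 0.689 percentage points per kilobase when a mouse was left out.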
